A study of Sus scrofa with 16 samples.

Results

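The genes described here were 10 drug-metabolizing cytochromes P450 of the pig: CYP1A1, CYP1A2, CYP2A19, CYP2B22, CYP2C49, CYP2D25, CYP2E1, CYP3A29, CYP3A39 and CYP3A46. A probe belonged to a gene where the array file gave that symbol as the gene name or in brackets in the description, which found 30 of the 43603 probes that were not controls. Cytochromes P450 are heme enzymes anchored in the endoplasmic reticulum that insert an oxygen atom into drugs, steroids, fatty acids and compounds made by gut bacteria, taking electrons from cytochrome P450 oxidoreductase. The liver carries most of this capacity and the intestine some of it, chiefly through the CYP3A enzymes. Receptors that sense foreign compounds set the amount of many of them, among which are the aryl hydrocarbon receptor for the CYP1A genes and the pregnane X and constitutive androstane receptors for CYP2B, CYP2C and CYP3A genes.

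The study asked how long-term feeding of raw potato starch (RPS), which largely escapes digestion in the small intestine, changed gene expression in comparison with corn starch (CS). All pigs were castrated males of the cross Duroc × Landrace × Large White that were put on the diets at 70 d of age and sampled at 170 d of age. Purified CS made up 230 g/kg of the growing feed and 280 g/kg of the finishing feed, given from 120 d, in the CS group, and the RPS group received the same amounts of purified RPS instead. RNA of the liver and of the colonic mucosa was measured on 16 arrays with 1 dye, a separate array for each pig and tissue and 4 for each combination of diet and tissue.

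The groups are called Liver_CS, Liver_RPS, Colon_CS and Colon_RPS, and pigs are named by the replicate number of their label. The median spot signal was 30.6 to 37.9 in Liver_CS, 31.1 to 37.9 in Liver_RPS, 56.3 to 70.8 in Colon_CS and 34.2 to 42.5 in Colon_RPS. The share of probes well above background, as marked by the scanner software, was 61.1% to 65.9%, 62.6% to 64.0%, 68.8% to 72.2% and 64.9% to 68.1% in the same order. Each group lay on 1 slide of its own, so slide and group cannot be told apart in any comparison.

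The tissue labels were checked against marker genes. Of 10 hepatocyte markers 7 had a probe, and all 7 were lower in the colon, with a median log2 difference of -10.29, also with TTR, on no colonic array above background, at its bound. Of 11 markers of colonic epithelium 9 had a probe, and all 9 were higher in the colon, with a median of 7.11, or 6.77 with CDX2, KRT20 and SLC26A3, which were well above background on no liver array, at their bounds. Within the colon, 2 arrays stood apart. The 9 epithelial markers summed to a signal of 133200 on Colon_CS replicate 3 and 204400 on Colon_RPS replicate 2, against 414100 to 606300 on the other 6, with LGALS4 the most abundant. On the same 2 arrays the 5 lymphocyte markers with a probe, of 6, had mean log2 signals of 11.19 and 10.66, against 7.62 to 9.64 on the others. Colon_RPS replicate 4, which was low for several P450 genes described further on, had an epithelial mean of 12.07, against 12.65 to 13.46 on the remaining arrays. Its lymphocyte mean of 7.62 and its share of probes well above background, 64.9%, were the lowest of the colonic arrays. It held 27 outlier spots, against 3 to 9 on each other colonic array. In these tissue extracts, fewer cells of a type and less RNA per cell cannot be told apart.

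In the liver most of the P450 probes could be read on every array, and few differed between the diets. Of the 30 probes, 29 exceeded background well on each of the 8 liver arrays, the exception being CYP2B22 A_72_P458896 with 2. A probe was counted as changed by diet with an unadjusted limma p under 0.05 and a change above 1.5-fold, and 4 of the 30 probes met this, beside 3.56% of all probes. The 3 probes of CYP2C49 were lower with RPS, beside 1.76% of all probes, and 1 probe of CYP2D25 was higher, beside 1.80% of all probes. After Benjamini-Hochberg adjustment over all probes, limma called 0 of the 30, with 5 at an unadjusted p under 0.05, beside 3309 of all 43603 probes, and a smallest adjusted p of 0.48 (CYP3A46 A_72_P737020, log2 difference -0.50, 3 of 4 RPS pigs below every CS pig). Also the methods' t-test, that of the study itself, gave 0 after adjustment, with 4 probes at an unadjusted p under 0.05, beside 2899 of all probes. The log2 difference (RPS minus CS) of the 30 probes ran from -0.83 to 1.06 with a median of -0.28, beside a median of 0 over all probes. Probes of 1 gene share their RNA and pigs and were not independent measurements.

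In the colonic mucosa many of these probes were near or below the level the arrays can read, while 6 of the 10 genes had a probe well above it on all 8 arrays. Of the 30 probes, 11 stood well above background throughout the 8 colonic arrays, 9 on some of them and 10 on none. For a probe well above background on no array of a group only a bound can be given, written as "at least": the mean of the brighter group against, array by array, the higher of the probe's own signal and the lowest signal among probes well above background. By diet, 1 of the 30 probes passed, a CYP2A19 probe lower with RPS, beside 2.94% of all probes. Limma called 0 after adjustment, with 1 at an unadjusted p under 0.05, beside 2362 of all 43603 probes, and a smallest adjusted p of 0.678 for that probe, at a log2 difference of -0.84 with all 4 RPS pigs below every CS pig. The methods' t-test also gave 0 after adjustment and 1 at an unadjusted p under 0.05 among the 20 probes that could be read, beside 3488 of all probes. Of the 20 probes well above background on at least 1 colonic array, 19 had a negative log2 difference, with a median of -0.52 and a range of -1.34 to 0.21 when 2 of them were set at their bound, beside a median of 0.01 over all probes. These 2 were well above background with CS only, so the selection itself favoured their negative sign. Over all 30 probes, with those at background included, 24 were negative, with a median of -0.41 and a range of -1.34 to 0.37. Without Colon_RPS replicate 4, 14 of the 20 were negative with a median of -0.32, and without another single colonic array 17 to 19, with medians from -0.29 (Colon_CS replicate 1 left out) to -0.80 (Colon_RPS replicate 1 left out).

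**Figure D1:**
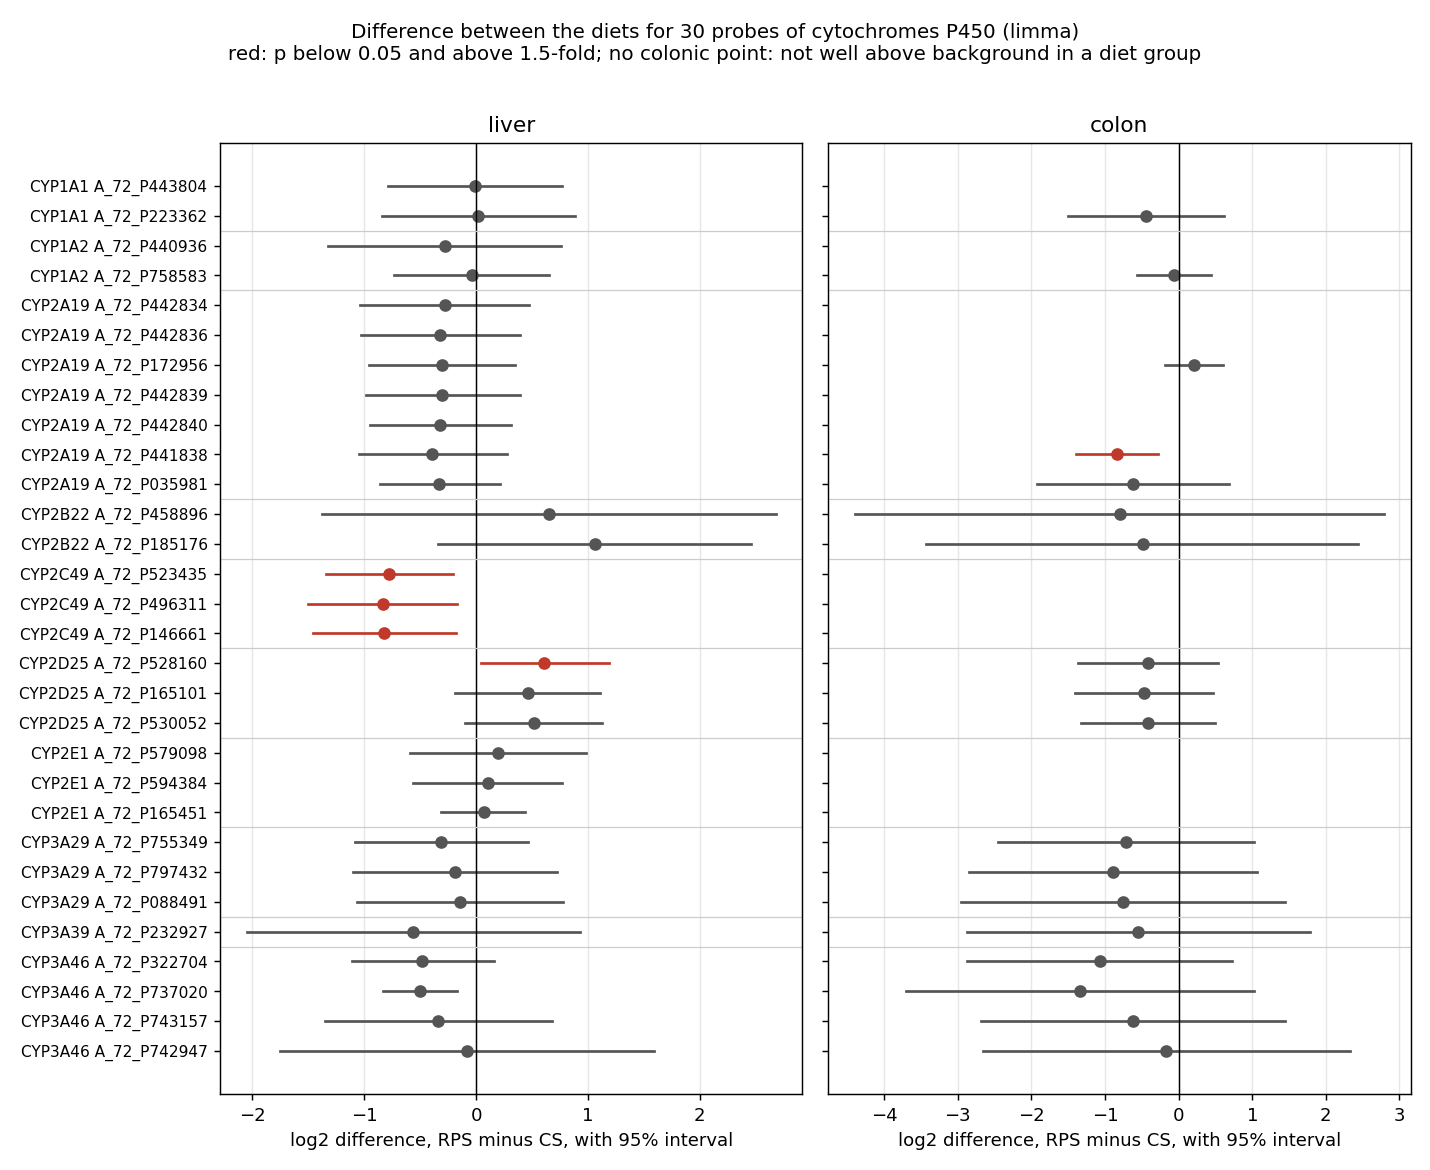
Log2 difference between the diets (RPS minus CS, horizontal axes) for the 30 probes in the liver and in the colon, with points for the limma estimates and lines for their 95% intervals over 4 pigs per diet. The 3 CYP2C49 probes and CYP2D25 A_72_P528160 in the liver and CYP2A19 A_72_P441838 in the colon are in red, the probes with p below 0.05 and a change above 1.5-fold, and 12 probes have no colonic point because a diet group was not well above background on any array.

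Between the tissues the P450 genes differed far more than between the diets. With all 16 arrays normalized together and an adjusted limma p under 0.05, 27 of the 30 probes were lower in the colon, beside 24.0% of all probes lower and 52.9% of all probes called in either direction. The median log2 difference (colon minus liver) was -8.15, beside 0.01 over all probes, and it was also -8.15 with the 10 probes on no colonic array set at their bound. For each of these 27 probes all 8 colonic arrays lay below all 8 liver arrays. The 3 that did not pass were both probes of CYP2B22 and CYP1A2 A_72_P758583. With normexp background and its offset of 50, the same number passed, but the size was smaller at all 30 probes, by over 1.5 times at 14 of them, with a median of -6.14. The bounds given below hold only for the background as the scanner software subtracted it. With normexp the log2 differences were -2.54 at CYP1A1 A_72_P443804, -4.23 at CYP1A2 A_72_P440936 and -5.70 at CYP2E1 A_72_P579098, each smaller in size than its bound.

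**Figure D2:**
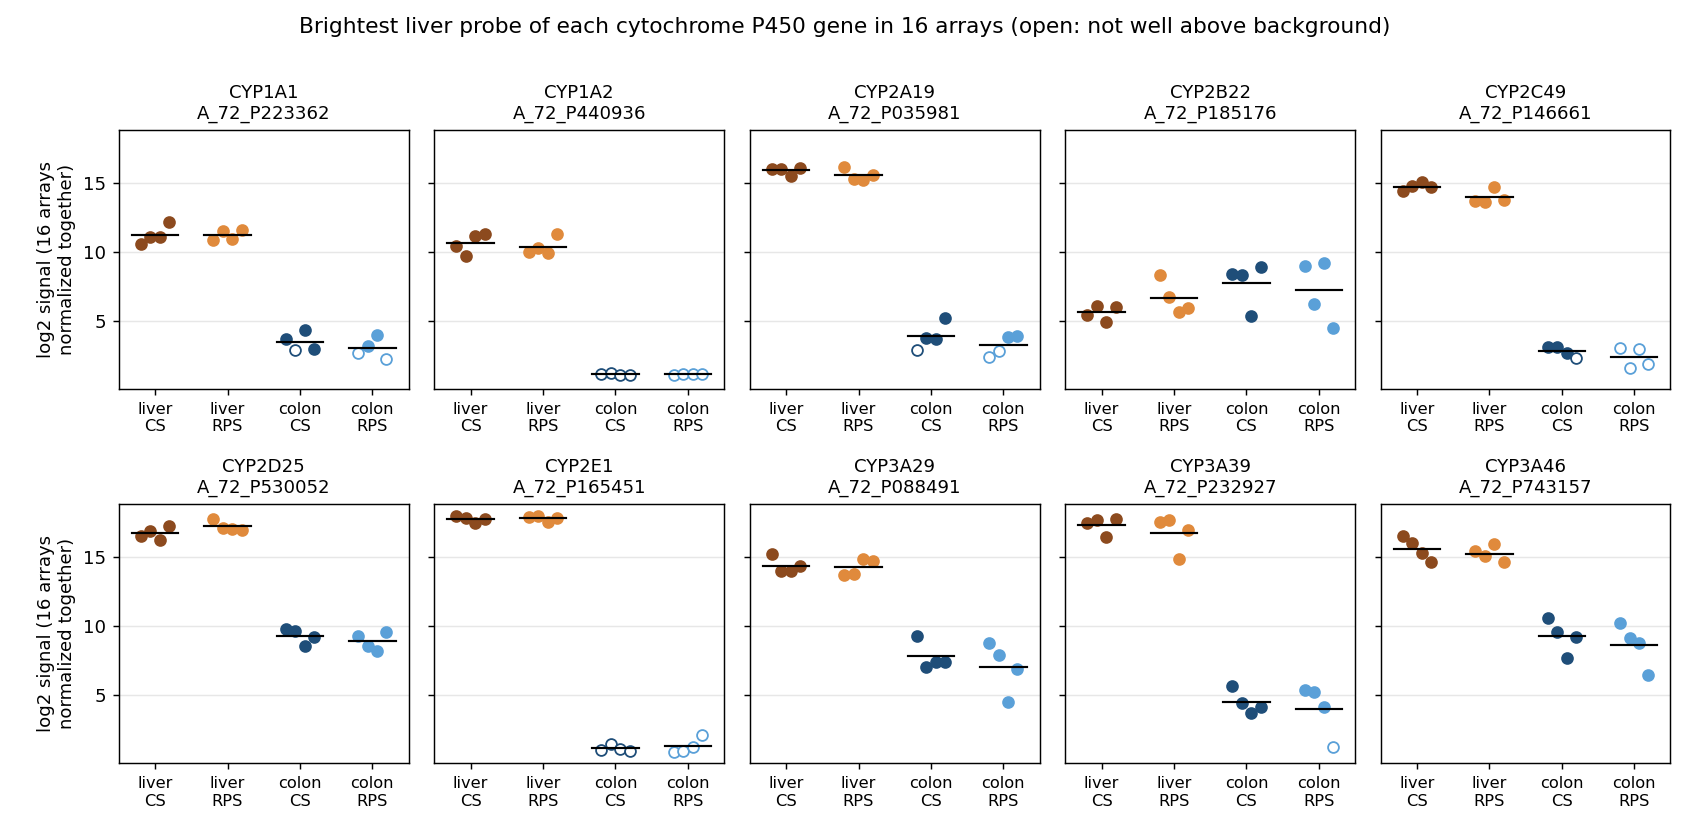
Log2 signal (vertical axes, 16 arrays normalized together) of the probe with the highest liver mean for each of the 10 genes, with a point per pig and a line at the mean of each group of 4, open where the spot was not well above background. Colonic values lie below all liver values in every panel but that of CYP2B22, where 5 of the 8 colonic arrays are above every liver array.

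The difference of the diet effect between the tissues was tested in the same fit of 16 arrays. Of the 30 probes 0 passed in limma with an unadjusted p under 0.05 and a size above 1.5-fold, beside 3.76% of all probes, and 0 had an unadjusted p under 0.05. The smallest unadjusted p, 0.0578, was that of CYP2D25 A_72_P528160, at a log2 difference of differences of -1.01 with a 95% interval from -2.06 to 0.04. Without Colon_RPS replicate 4 the count was 4, without Colon_CS replicate 3 it was 3, without Liver_RPS replicate 1, Liver_RPS replicate 4 or Colon_RPS replicate 2 it was 2, and without Liver_CS replicate 2, Liver_CS replicate 4 or Liver_RPS replicate 3 it was 1.

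CYP1A1 and CYP1A2 oxidize flat aromatic molecules, such as the polycyclic hydrocarbons of smoke and caffeine, and both are targets of the aryl hydrocarbon receptor. In the liver, CYP1A1 A_72_P223362 had log2 signals of 10.44, 10.91, 10.98 and 12.07 in the CS pigs and 10.71, 11.43, 10.82 and 11.51 in the RPS pigs. The RPS values lay within the range of the CS values, in which replicate 4 was highest. By diet it differed by 0.02 (95% interval -0.84 to 0.88, limma p = 0.962, exact permutation p = 1), between -0.20 without Liver_CS replicate 1 and 0.34 without Liver_CS replicate 4, and it was -0.01 at the other probe, A_72_P443804. CYP1A2 A_72_P440936 read 10.26, 9.56, 11.03 and 11.15 in the CS pigs and 9.81, 10.16, 9.78 and 11.15 in the RPS pigs. The groups overlapped, with a log2 difference of -0.28 (95% interval -1.32 to 0.76, limma p = 0.553, exact permutation p = 0.657).

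In the colon, CYP1A1 A_72_P223362 read 4.02, 3.19, 4.59 and 3.24 in the CS pigs and 2.97, 3.47, 4.24 and 2.57 in the RPS pigs. Of these arrays 5 were well above background, the others being Colon_CS replicate 2 and Colon_RPS replicates 1 and 4, and the groups overlapped (log2 difference -0.44, limma p = 0.357, exact permutation p = 0.4). It was lower in the colon than in the liver by a log2 difference of -7.99 (adjusted p = 2.18e-11, lower in 8 of 8 colonic arrays), and CYP1A1 A_72_P443804, on no colonic array above background, was at least 100-fold lower.

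The probes of CYP1A2 disagreed on the tissues. A_72_P440936 was well above background on 0 of 8 colonic arrays and at least 454-fold lower there than in the liver. A_72_P758583 was well above background on all 16 arrays, with 7.43, 6.85, 8.18 and 7.75 in Liver_CS, 7.47, 7.28, 7.34 and 7.96 in Liver_RPS, 8.02, 7.27, 8.17 and 8.14 in Colon_CS and 7.85, 7.72, 8.01 and 7.78 in Colon_RPS. Normalized over the 16 arrays, its mean log2 signal was 7.75 (SD 0.41, n = 8) in the liver and 7.65 (SD 0.30, n = 8) in the colon, a log2 difference of -0.10 with a 95% interval from -0.50 to 0.31. In the liver both probes were lowest in Liver_CS replicate 2. The root mean square (RMS) difference between their centred log2 values over the 8 liver arrays was 0.33. Their SDs over these arrays were 0.66 (A_72_P440936) and 0.42 (A_72_P758583). In the colon the RMS difference was 0.32 with A_72_P440936 at background, so a small RMS alone does not show that probes follow each other. Neither passed by diet in the liver, and the log2 difference of A_72_P758583 by diet was -0.04 there and -0.06 in the colon.

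CYP2A19, the pig's counterpart of the human enzyme that oxidizes nicotine and coumarin, also breaks down skatole, a product of bacterial tryptophan fermentation in the large intestine. It had 7 probes. In the liver, A_72_P035981 read 16.03, 16.09, 15.56 and 16.15 in the CS pigs and 16.21, 15.37, 15.32 and 15.61 in the RPS pigs. Liver_RPS replicate 1 had the highest value of all and Liver_CS replicate 3 was low, so the groups overlapped. The same pigs were the highest in Liver_RPS and the lowest in Liver_CS at all 7 probes, whose pairwise RMS differences over the 8 liver arrays were 0.06 to 0.26. The log2 difference was -0.33 (95% interval -0.86 to 0.21, limma p = 0.193, exact permutation p = 0.257), and it was -0.28 to -0.39 over the 7 probes, of which 0 had an unadjusted p under 0.05 by limma or by the methods' t-test. Without Liver_RPS replicate 1, A_72_P441838 passed at -0.64.

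In the colon, CYP2A19 held the only P450 probe of the 30 that passed by diet, beside 2.94% of all probes. A count of 1 in 30 is near that share. A_72_P441838 read 4.54, 4.61, 4.62 and 4.83 in the CS pigs and 3.46, 4.51, 3.74 and 3.55 in the RPS pigs. All 4 RPS pigs lay below all 4 CS pigs, with replicate 2 just below the CS range and replicate 4 not well above background. The log2 difference was -0.84 (95% interval -1.39 to -0.28, limma p = 0.00868, adjusted p = 0.678), and the exact permutation p of 0.0286 is the smallest that 4 against 4 pigs can give. With the background subtracted by the normexp method the log2 difference was -0.15 and the probe no longer passed. Of the 3 other readable probes 2 had the same sign and 0 passed. A_72_P035981 read 3.17, 4.05, 4.00 and 5.46 in the CS pigs and 2.70, 3.13, 4.16 and 4.21 in the RPS pigs, overlapping, with a log2 difference of -0.62 (limma p = 0.296, exact permutation p = 0.429). A_72_P172956, the CYP2A19 probe on all 8 colonic arrays above background, read 4.75, 4.54, 4.76 and 4.67 with CS and 5.34, 4.57, 4.86 and 4.78 with RPS, overlapping in the opposite direction at 0.21 (limma p = 0.266, exact permutation p = 0.257). A_72_P442840 was above background on 2 CS arrays and no RPS array, and its groups overlapped, so no fold is given.

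For fibroblasts and smooth muscle 4 of 7 marker genes had a probe, and 1 of the 4 passed by diet in the colon, beside 2.94% of all probes. At an unadjusted p under 0.05 there were 3 by limma, beside 2362 of all 43603 probes, and 3 by the methods' t-test, beside 3488. All 4 were above background on all 8 arrays, and their summed signal was 42040, 40410, 37620 and 45710 in the CS pigs and 33170, 29790, 32710 and 25640 in the RPS pigs, with ACTA2 the most abundant. These sums did not overlap between the diets, and COL1A2, a collagen chain, was the gene that passed (log2 difference -0.72, limma p = 0.0173, exact permutation p = 0.0571). This call was lost without Colon_RPS replicate 4 at -0.53, and with the replicate number as a block. ACTA2, of smooth muscle (-0.52, limma p = 0.00473, exact permutation p = 0.0286), and DES, desmin (-0.28, limma p = 0.0306, exact permutation p = 0.0571), stayed below 1.5-fold. Their part in the CYP2A19 value was not tested.

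The CYP2A19 probe on the colon's call is shown with its place in the transcript, since the other probes of this gene read elsewhere along it. It begins at base 1301 of its target.
CYP2A19 A_72_P441838: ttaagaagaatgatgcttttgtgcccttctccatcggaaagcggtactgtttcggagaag

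Between the tissues all 7 CYP2A19 probes were lower in the colon. The log2 difference was -12.18 at A_72_P035981 (adjusted p = 3.11e-13, lower in 8 of 8 colonic arrays), where 5 colonic arrays were above background, and -6.85 at A_72_P172956. The 3 probes above background on no colonic array were at least 139-fold, 160-fold and 539-fold lower.

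CYP2B22 belongs to the subfamily that phenobarbital induces through the constitutive androstane receptor. It varied most among the pigs: the SD of its probe A_72_P185176 over the 8 liver arrays was 1.03, the largest among the brightest liver probes of the 10 genes. In the liver this probe read 5.19, 5.83, 4.65 and 5.80 in the CS pigs and 8.09, 6.48, 5.41 and 5.72 in the RPS pigs. Liver_RPS replicate 1 stood highest, replicate 2 was also above every CS pig, and replicates 3 and 4 lay inside the CS range. This gave a log2 difference of 1.06 (95% interval -0.34 to 2.46, limma p = 0.118, exact permutation p = 0.171), and without Liver_RPS replicate 1 it was 0.50. At A_72_P458896, above background on 2 of 8 liver arrays, it was 0.65, and -0.04 without that pig.

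In the colon, CYP2B22 A_72_P185176 read 8.60, 8.53, 5.61 and 9.11 in the CS pigs and 9.21, 6.50, 9.42 and 4.75 in the RPS pigs. The low values were Colon_CS replicate 3 and Colon_RPS replicates 2 and 4, and the groups overlapped. Of these, Colon_CS replicate 3 and Colon_RPS replicate 2 were the arrays with low epithelial and high lymphocyte markers. Colon_RPS replicate 4 was not among them, though its epithelial mean of 12.07 was the lowest of the remaining arrays. The part of cell composition in these values was not tested. With a 95% interval from -3.43 to 2.44, the log2 difference was -0.49, and without Colon_RPS replicate 4 it turned to 0.41. With both arrays of low epithelial markers left out, a choice made after seeing the data, it was -0.95.

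CYP2B22 was the member whose colonic signal was not below that of the liver at either probe. At A_72_P185176, 5 of the 8 colonic arrays were above every liver array and 1 was below all of them, with a log2 difference of 1.35 (95% interval -0.21 to 2.91, adjusted p = 0.138 from limma). It passed without Colon_CS replicate 3 (1.75), without Colon_RPS replicate 4 (1.81) and without the 2 arrays of low epithelial markers (1.92). Within the CS pigs the log2 difference was 2.12 and within the RPS pigs 0.58, neither passing. A_72_P458896 gave 1.10 (adjusted p = 0.335).

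**Figure D3:**
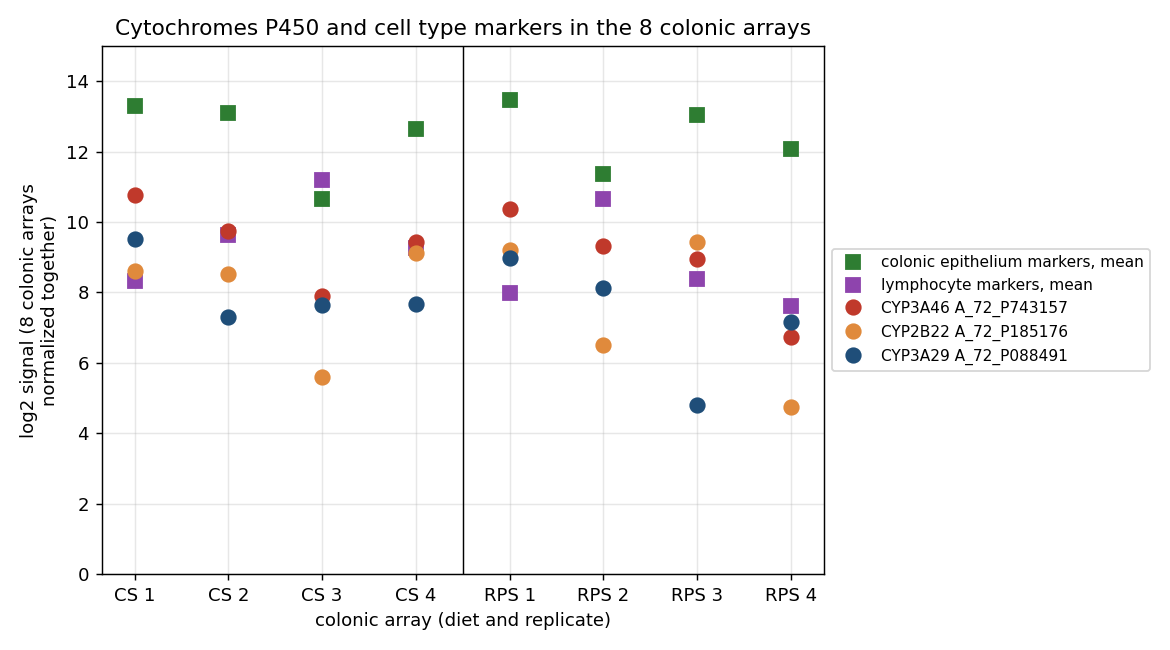
Log2 signal (vertical axis, 8 colonic arrays normalized together) on each colonic array (horizontal axis) of CYP3A46, CYP2B22 and CYP3A29, circles, and the mean of the colonic epithelium and lymphocyte markers, squares. CYP2B22 is at 5.61 and 6.50 on CS 3 and RPS 2, where the epithelial means are 10.64 and 11.37, and at 4.75 on RPS 4, where the epithelial mean is 12.07.

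The genes whose pattern over the 8 liver arrays was most like that of CYP2B22 A_72_P185176 were sought among 4942 genes with a probe above background on all 8, by the RMS difference of centred log2 values. They were PACRGL (0.44), PAPOLA, a poly(A) polymerase (0.51), ME1, the cytosolic malic enzyme (0.51), DFNB59 (0.51) and SFXN3 (0.53). PACRGL read 3.74, 4.21, 3.85 and 3.45 in the CS pigs and 6.59, 5.14, 3.39 and 3.79 in the RPS pigs, high in the same replicates 1 and 2 of the RPS group.

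CYP2C49 belongs to the CYP2C subfamily, which in mammals oxidizes many acidic drugs, steroids and arachidonic acid. It was the gene of the 10 with all its probes past the thresholds by diet in the liver. A_72_P146661 read 14.47, 14.83, 15.17 and 14.80 in the CS pigs and 13.72, 13.69, 14.77 and 13.82 in the RPS pigs. RPS replicates 1, 2 and 4 lay below every CS pig, and replicate 3 lay inside the CS range. By diet the log2 difference was -0.82 (95% interval -1.46 to -0.18, limma p = 0.0188, adjusted p = 0.546, exact permutation p = 0.0571), with 3 of 4 RPS pigs below all CS pigs.

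The other probes of CYP2C49 showed the same pigs high and low. A_72_P523435 read 14.00, 14.11, 14.27 and 14.49 in the CS pigs and 13.17, 13.25, 14.15 and 13.20 in the RPS pigs. A_72_P496311 read 12.63, 13.06, 13.38 and 13.01 in the CS pigs and 11.90, 11.94, 12.99 and 11.92 in the RPS pigs. At both probes RPS replicate 3 was the pig inside the CS range, and over the 8 liver arrays the 3 probes differed by an RMS of 0.05 to 0.17. The log2 differences were -0.78 (limma p = 0.0138, adjusted p = 0.519, exact permutation p = 0.0857) and -0.83 (limma p = 0.021, adjusted p = 0.554, exact permutation p = 0.0571), each with 3 of 4 RPS pigs below all CS pigs.

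The size and the call rested on few pigs. Without Liver_RPS replicate 3 the log2 differences of A_72_P146661, A_72_P523435 and A_72_P496311 were -1.08, -1.02 and -1.10, with adjusted p of 0.362, 0.329 and 0.362 from limma. A_72_P523435 passed with any single liver array left out. A_72_P146661 just missed the p threshold without Liver_CS replicate 3 (-0.70), Liver_RPS replicate 1 (-0.72) or Liver_RPS replicate 2 (-0.72). A_72_P496311 missed it without Liver_CS replicate 3 (-0.71), Liver_RPS replicate 1 (-0.74), Liver_RPS replicate 2 (-0.75) or Liver_RPS replicate 4 (-0.74). Of the 4 passing liver probes 1, A_72_P523435, was left without Liver_CS replicate 3 or Liver_RPS replicate 1, and 2 were left without Liver_RPS replicate 2, while without Liver_CS replicate 4 the count was 7. When the 16 arrays were fitted together, A_72_P523435 (-0.73) and A_72_P496311 (-0.78) lost the call.

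Liver_RPS replicate 3 also stood apart for markers of bile ducts. Of 4 such genes 2 had a probe, SOX9 and EPCAM, and their summed signal was 61.1 on this array against 249.8 to 489.9 on the other 7, with EPCAM the most abundant. Their mean log2 signal was 6.15, 6.30, 6.78 and 6.22 in the CS pigs and 5.83, 5.96, 3.93 and 5.98 in the RPS pigs. By this mean the RPS pigs lay below the CS pigs without overlap, while the sums of RPS replicates 1, 2 and 4, 253.8 to 274.4, lay inside the CS range. EPCAM was at -0.75 (limma p = 0.198, exact permutation p = 0.314), with 1 of 4 RPS pigs below every CS pig. SOX9 passed by diet (log2 difference -1.13, limma p = 0.0316, exact permutation p = 0.0286), at -0.67 without Liver_RPS replicate 3, but not past the p threshold without any 1 of the CS pigs. With normexp background SOX9 was at -0.18 and did not pass, and it lost the call with the replicate number as a block. By the methods' t-test 0 of the 2 had an unadjusted p under 0.05. Endothelial markers, 4 of 4 with a probe, summed to 8327, 8656, 8883 and 8587 in the liver of the CS pigs and 7366, 6915, 6469 and 8105 in the RPS pigs, without overlap. Their mean log2 signals did overlap, at 10.43, 10.74, 10.63 and 10.54 in the CS pigs and 10.45, 10.31, 10.01 and 10.46 in the RPS pigs. PECAM1 of this list (-0.33, limma p = 0.0076, exact permutation p = 0.0286) and the macrophage marker CD14 (-0.28, limma p = 0.00895, exact permutation p = 0.0286) were below every CS pig in 4 of 4 RPS pigs, at changes under 1.5-fold. Of the fibroblast and smooth muscle markers 0 of 4 passed in the liver, with DES at -0.16 (limma p = 0.0491, exact permutation p = 0.0286), COL1A2 at -0.69 (limma p = 0.0586, exact permutation p = 0.0857) and DCN at -0.64. ACTA2, the most abundant of the 4, went the other way at 0.35 (limma p = 0.372, exact permutation p = 0.371). Of the hepatocyte markers 0 of 7 passed, with 1 at an unadjusted limma p under 0.05, SERPINA1 (-0.24), beside 3309 of all 43603 probes. Hepatocyte markers in the liver had means between 17.38 and 17.65. The part of these markers in the CYP2C49 values was not tested.

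The 3 CYP2C49 probes are shown because the result rests on them and because they read separate stretches of the transcript, beginning at bases 636, 973 and 1240 of their target. Capitals mark runs of at least 12 of the 60 bases that a probe shares with a probe of another gene of the 10. A_72_P496311 shares 12 bases with CYP1A1 A_72_P443804 and A_72_P146661 shares 14 with CYP2D25 A_72_P165101, while the longest run of A_72_P523435 was 8 bases and is not marked. Whole transcripts and the other CYP2C genes on the array were not compared, so these runs do not show which RNA a probe binds.
CYP2C49 A_72_P523435: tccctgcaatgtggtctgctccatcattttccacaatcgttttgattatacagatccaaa
CYP2C49 A_72_P496311: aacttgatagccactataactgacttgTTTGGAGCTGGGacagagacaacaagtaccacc
CYP2C49 A_72_P146661: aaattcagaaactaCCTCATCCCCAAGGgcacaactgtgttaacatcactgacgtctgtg
CYP1A1 A_72_P443804: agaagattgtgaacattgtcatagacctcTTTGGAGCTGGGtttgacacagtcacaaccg
CYP2D25 A_72_P165101: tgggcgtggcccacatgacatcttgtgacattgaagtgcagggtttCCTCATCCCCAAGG
By diet in the liver the log2 differences of these partner probes were -0.01 for CYP1A1 A_72_P443804 and 0.46 for CYP2D25 A_72_P165101, neither passing, and binding of RNA across the shared runs was not tested.

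In the colon CYP2C49 was close to background. A_72_P523435 and A_72_P496311 were above it on no colonic array and were at least 4100-fold and 1620-fold lower than in the liver. With normexp the log2 differences were -7.44 and -6.14, smaller in size than these bounds. A_72_P146661 was well above background on 3 of 8, all with CS, with a log2 difference between the tissues of -11.76 (adjusted p = 2.47e-14, lower in 8 of 8 colonic arrays). By diet its groups overlapped, and no fold is given because all 4 RPS arrays were not well above background.

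CYP2D25 is the microsomal vitamin D 25-hydroxylase of pig liver and a relative of the human enzyme that oxidizes many psychoactive drugs. In the liver, A_72_P530052 read 16.55, 16.90, 16.26 and 17.22 in the CS pigs and 17.83, 17.14, 17.05 and 16.99 in the RPS pigs. RPS replicate 1 was above every CS pig, and the other RPS pigs lay between CS replicates 2 and 4. Its log2 difference was 0.52 (95% interval -0.10 to 1.13, limma p = 0.0895, exact permutation p = 0.171), and without Liver_CS replicate 4 it passed at 0.68. A_72_P528160 read 13.58, 14.15, 13.41 and 14.01 in the CS pigs and 14.82, 14.20, 14.63 and 13.95 in the RPS pigs. Here 3 of 4 RPS pigs were above every CS pig, with replicate 2 only just above and replicate 4 inside the CS range.

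A_72_P528160 was the CYP2D25 probe that passed, at a log2 difference of 0.61 (95% interval 0.04 to 1.19, limma p = 0.0399, adjusted p = 0.626, exact permutation p = 0.114). It was not past the thresholds without Liver_CS replicate 1 (0.54), Liver_CS replicate 3 (0.49), Liver_RPS replicate 1 (0.47) or Liver_RPS replicate 3 (0.54). It also lost the call with quantile normalization over 16 arrays or the authors' log2 values (0.58 in both), with the methods' t-test and with 16 arrays in 1 fit (0.58). Taking the replicate number as a block ended the call too, at 0.61. A_72_P165101 did not pass, at 0.46 (limma p = 0.141, exact permutation p = 0.143), with 3 of 4 RPS pigs above every CS pig, and passed without Liver_RPS replicate 4 at 0.66. The 3 probes had the same direction, and their RMS differences over the 8 liver arrays were 0.12 to 0.22.

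The CYP2D25 probe that passed is shown since it was the liver probe of the 10 genes called higher with RPS, beginning at base 677 of its target.
CYP2D25 A_72_P528160: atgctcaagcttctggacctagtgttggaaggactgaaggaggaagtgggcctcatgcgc

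In the colon, CYP2D25 A_72_P530052 read about 10, 9.87, 8.73 and 9.43 in the CS pigs and 9.47, 8.79, 8.39 and 9.75 in the RPS pigs. The groups overlapped, with Colon_CS replicate 3 and Colon_RPS replicate 3 the lowest of their groups. The log2 differences of the 3 probes by diet were -0.41 to -0.47 (limma p = 0.281 to 0.33, exact permutation p = 0.286 to 0.314), opposite in sign to the liver, and the differences of the differences were -0.94 to -1.01, none passing (adjusted p = 0.999 from limma). All 3 probes were above background on all 8 colonic arrays and lower there than in the liver, by log2 differences of -7.88 to -8.42.

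CYP2E1 oxidizes ethanol, acetone and paracetamol and, in the pig, skatole. In the liver, A_72_P165451 read 18.02, 17.88, 17.47 and 17.82 in the CS pigs and 17.98, 18.05, 17.53 and 17.90 in the RPS pigs. The groups overlapped almost fully, and replicate 3 was the lowest in each. Its log2 difference was 0.07 (95% interval -0.31 to 0.44, limma p = 0.681, exact permutation p = 0.571), and the SD of 0.22 over the 8 liver arrays was the smallest among the brightest liver probes of the 10 genes, while the other 2 CYP2E1 probes had SDs of 0.49 and 0.41. Over its 3 probes the difference was 0.07 to 0.20, and without Liver_CS replicate 3 it turned to -0.04, -0.08 and -0.09 at A_72_P165451, A_72_P579098 and A_72_P594384. In the colon, all 3 probes were above background on 0 of 8 arrays. With the scanner software's background the signal was at least 65900-fold (A_72_P165451), 16300-fold (A_72_P594384) and 1170-fold (A_72_P579098) lower than in the liver. With normexp background the log2 differences were -11.47, -9.34 and -5.70 in the same order, smaller in size than these bounds.

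CYP3A29, CYP3A39 and CYP3A46 belong to the subfamily that handles the broadest range of drugs in liver and gut and is induced through the pregnane X receptor. In the liver, CYP3A29 A_72_P088491 read 15.33, 14.04, 14.03 and 14.44 in the CS pigs and 13.76, 13.83, 14.92 and 14.78 in the RPS pigs. The groups overlapped, with CS replicate 1 highest and RPS replicates 1 and 2 lowest. By diet it differed by -0.14 (95% interval -1.06 to 0.78, limma p = 0.73, exact permutation p = 0.8), and it was -0.14 to -0.31 over its 3 probes. At A_72_P088491 it turned to 0.15 without Liver_CS replicate 1, 0.04 without Liver_RPS replicate 1 and 0.03 without Liver_RPS replicate 2. CYP3A39, read by the single probe A_72_P232927, had 17.50, 17.72, 16.47 and 17.80 in the CS pigs and 17.56, 17.74, 14.98 and 16.97 in the RPS pigs. Replicate 3 was the lowest of each group, and Liver_RPS replicate 3, the array with low bile duct and high CYP2C49 signals, was the only RPS pig below the CS range. This gave a log2 difference of -0.56 (95% interval -2.05 to 0.93, limma p = 0.406, exact permutation p = 0.571), and without that array it turned to 0.05.

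The 4 probes of CYP3A46 gave different pictures of the liver. A_72_P743157 read 16.53, 16.08, 15.37 and 14.72 in the CS pigs and 15.50, 15.15, 15.98 and 14.73 in the RPS pigs, fully overlapping, with a log2 difference of -0.34 (95% interval -1.35 to 0.68, limma p = 0.461, exact permutation p = 0.543). A_72_P737020 read 14.97, 14.94, 14.67 and 14.46 in the CS pigs and 14.48, 14.23, 14.19 and 14.15 in the RPS pigs. Here 3 of 4 RPS pigs lay below every CS pig and replicate 1 just above the lowest. Its log2 difference of -0.50, 1.41-fold, had the smallest p of the 30 probes in the liver (limma p = 0.00898, adjusted p = 0.48, exact permutation p = 0.0571) but stayed below 1.5-fold, and without Liver_CS replicate 4 it passed at -0.59. A_72_P322704 was at -0.48 (limma p = 0.121, exact permutation p = 0.171) and passed without the same pig at -0.71, and A_72_P742947 was at -0.08. This last probe departed most from the others, with 14.81, 12.52, 14.07 and 11.83 in the CS pigs and 13.55, 12.10, 13.88 and 13.38 in the RPS pigs, and the RMS differences between CYP3A46 probes reached 0.94 in the liver and 1.70 in the colon. The RefSeq table of the pig genome (Sscrofa11.1) lists CYP3A39 as an older name of CYP3A46, while the array file keeps them as separate genes, and their values are given apart here.

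In the colon the CYP3A genes were readable and varied widely among pigs of a group. CYP3A29 A_72_P088491 read 9.51, 7.30, 7.65 and 7.66 in the CS pigs and 8.98, 8.14, 4.80 and 7.17 in the RPS pigs. Replicate 1 was the highest of each group, Colon_RPS replicate 3 was low, and the groups overlapped. The log2 difference was -0.76 (95% interval -2.96 to 1.45, limma p = 0.447, exact permutation p = 0.486), and without Colon_RPS replicate 3 it turned to 0.07. CYP3A39 A_72_P232927 read 5.90, 4.70, 4.03 and 4.41 in the CS pigs and 5.64, 5.49, 4.45 and 1.28 in the RPS pigs, the last not well above background. That pig, replicate 4, was the only RPS pig below the CS range, and without it the log2 difference of -0.55 (limma p = 0.597, exact permutation p = 0.771) turned to 0.43.

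CYP3A46 A_72_P743157 in the colon read 10.78, 9.74, 7.90 and 9.42 in the CS pigs and 10.37, 9.31, 8.96 and 6.73 in the RPS pigs. Colon_RPS replicate 4 was again the lowest, and Colon_CS replicate 3 was the lowest of the CS pigs. By diet it differed by -0.62 (95% interval -2.69 to 1.45, limma p = 0.506, exact permutation p = 0.543), and without Colon_RPS replicate 4 it turned to 0.09. All 4 probes of CYP3A46 were lowest on this array. The most negative log2 difference of the 20 readable probes, -1.34 (limma p = 0.223, exact permutation p = 0.314), was that of A_72_P737020, which read 8.09, 7.12, 5.97 and 6.91 in the CS pigs and 7.19, 6.46, 6.41 and 2.66 in the RPS pigs, overlapping but for replicate 4. This last array was not well above background, and without it the log2 difference was -0.34.

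Between the tissues all 8 CYP3A probes were lower in the colon. CYP3A29 differed by -6.91 to -7.14 over its 3 probes, which were above background on all 8 colonic arrays, CYP3A39 by -12.83 (adjusted p = 2.49e-10, lower in 8 of 8 colonic arrays) and CYP3A46 by -6.50 to -8.35 over its 4 probes. The differences within CS pigs and within RPS pigs had the same sign for each.

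For CYP3A29 the probes A_72_P755349 and A_72_P797432 share 48 of their 60 bases, in capitals, so they count as hardly more than a single measurement. They begin at bases 1458 and 1470 of their target and gave log2 differences by diet of -0.31 and -0.19 in the liver and -0.71 and -0.89 in the colon.
CYP3A29 A_72_P755349: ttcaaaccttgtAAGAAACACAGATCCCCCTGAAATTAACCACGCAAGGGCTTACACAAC
CYP3A29 A_72_P797432: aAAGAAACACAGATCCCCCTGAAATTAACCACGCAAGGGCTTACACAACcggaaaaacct

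The receptors and redox partners of the P450 enzymes had a probe for 7 of 11 genes, and 0 of the 7 passed limma by diet in either tissue, with 0 at an unadjusted p under 0.05 by limma and 0 by the methods' t-test. The median log2 difference of this list by diet was -0.07 in the liver and 0.34 in the colon. Between the tissues 5 were lower in the colon, beside 24.0% of all probes, and 1 was higher, with a median of -0.96. Cytochrome P450 oxidoreductase (POR), the electron donor, was lower in the colon at -2.18 (adjusted p = 5.79e-08, 8 of 8 arrays), cytochrome b5 (CYB5A), which assists it, at -3.24 (adjusted p = 1.53e-08, 8 of 8 arrays), and HNF4A, a factor of liver and gut epithelium that many P450 genes depend on, at -2.15 (adjusted p = 5.46e-05, 8 of 8 arrays). The aryl hydrocarbon receptor (AHR) was at -0.96 (adjusted p = 1.01e-05, 8 of 8 arrays) and its partner ARNT at -0.35 (adjusted p = 0.0273, 5 of 8 arrays below all of the liver), which did not pass within the RPS pigs (-0.14) and passed with 8 of the 16 arrays left out in turn (-0.29 to -0.42). The constitutive androstane receptor (NR1I3) was higher in the colon at 0.91 (adjusted p = 0.0409, 6 of 8 arrays above all of the liver), but did not pass within the CS pigs (0.62) or the RPS pigs (1.21) and passed with 4 of the 16 arrays left out in turn (0.75 to 1.17). The pregnane X receptor (NR1I2) did not differ past the threshold, at -0.23 (adjusted p = 0.578), and turned to 0.04 without Colon_CS replicate 3. AHRR, RXRA, CYB5R3 and ALAS1 had no probe under these names and were not analysed here.

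Other P450 genes on the array numbered 24, with log2 medians by diet of 0.02 in the liver and 0.05 in the colon. In the liver 1 of the 24 passed, beside 3.56% of all probes: CYP2C32, a further member of the subfamily of CYP2C49, which was lower with RPS at -0.82 (limma p = 0.0118, adjusted p = 0.506, exact permutation p = 0.0571, 3 of 4 RPS pigs below all CS pigs). It lost the call with 16 arrays in 1 fit. Of the 24, 2 had an unadjusted limma p under 0.05 in the liver, beside 3309 of all 43603 probes. The other was CYP2R1, a vitamin D 25-hydroxylase, which was above every CS pig in 4 of 4 RPS pigs but just under 1.5-fold (0.57, limma p = 0.0011, adjusted p = 0.337, exact permutation p = 0.0286). In the colon 3 had such a p, beside 2362 of all 43603 probes. Of the 3, CYP19A1 (0.38) and CYP24A1 (0.20) were under 1.5-fold and 1 passed, beside 2.94% of all probes passing. This was CYP26A1, which breaks down retinoic acid, on signals of which 0 of 8 were well above background, so no fold is given. Between the tissues 14 of the 24 were lower in the colon, beside 24.0% of all probes, and 1 higher, with a median of -2.21, or -3.87 over the 22 with a fold or a bound, against -8.15 for the 30 probes of the 10 genes.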

How the data were processed

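RNA of liver and colonic mucosa was measured on 16 one-colour porcine arrays. Per the file headers, the authors extracted spot intensity with Feature Extraction 10.7.3.1, with the background subtracted and not normalized between arrays. A deposited table of the authors' own log2 values, quantile normalized across 16 arrays, was used as an alternative, and each column matched its own array best. Control spots were left out, outlier spots (0 among the 30 probes) set to missing, and log2 intensity quantile normalized, within the 8 arrays of each tissue for diet and over all 16 for tissue and for the difference of diet effects. Each probe was fitted with limma 3.58.1 (lmFit, eBayes) in R 4.3.3, using data.table (version 1.17.8). Adjustment over the 43603 probes followed Benjamini and Hochberg, and exact two-sided permutation tests compared 4 with 4 pigs. Steps were tested on simulated data. Python 3.11.15, numpy 2.4.6, pandas 2.3.3 and matplotlib 3.10.9 served for tables and figures. The number of arrays limits the precision.

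All probes of the 10 genes were read. Of a gene's probes, the one with the highest mean over the liver arrays was given in full and others by range and where they disagreed. From lists of other genes of drug metabolism (1 probe per gene, the brightest over 16 arrays), the receptors and redox partners were always named, then up to 10 passing by diet in each tissue and the 3 most extreme in each direction between the tissues. Likeness was computed for the gene with the largest liver SD. The genes and lists were chosen with earlier results of these data known. Symbols came from the array files and the RefSeq table (Sscrofa11.1), which held 10378 probes by symbol, 462 through an earlier name, 2200 through a LOC number and 1005 through an accession, with 29558 unnamed there. Of 109 list genes 73 had a probe. Marker lists of hepatocytes, colonic epithelium, bile duct, macrophages, lymphocytes, endothelium and fibroblasts with smooth muscle served to check tissues and cell composition. Alternatives covered scaling, background, the authors' values, outlier spots, a filter on dim probes, the test, the arrays fitted together, replicate and slide blocks, thresholds, averaged probes and each array left out.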

Additional observations from a re-analysis of the deposited data

Results flagged for a closer look

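Among the 84 combinations of a P450 probe and a group with all 4 arrays well above background, 12 had a pig whose log2 signal was far from the other 3 by Dixon's test. Chance gives about 1 in 20 groups, and probes of 1 gene are not independent.

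Liver_RPS replicate 3 was high at all CYP2C49 probes, with 14.77 at A_72_P146661 (others 13.69 to 13.82), 12.99 at A_72_P496311 (others 11.90 to 11.94) and 14.15 at A_72_P523435 (others 13.17 to 13.25). Liver_RPS replicate 1 was high at CYP2A19 A_72_P441838 with 13.77 (others 12.70 to 12.81), at A_72_P442839 with 11.16 (others 10.12 to 10.27) and at A_72_P442840 with 13.32 (others 12.33 to 12.40). Liver_CS replicate 3 was low at CYP2A19 A_72_P441838, with 12.88 against 13.50 to 13.60.

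Colon_CS replicate 1 was high at all CYP3A29 probes, with 9.51 at A_72_P088491 (others 7.30 to 7.66), 9.33 at A_72_P755349 (others 7.03 to 7.33) and 9.11 at A_72_P797432 (others 7.02 to 7.34). Colon_CS replicate 3, an array with low epithelial markers, was low at CYP2B22 A_72_P185176, with 5.61 against 8.53 to 9.11. Colon_CS replicate 2 was low at CYP1A2 A_72_P758583, with 7.27 against 8.02 to 8.17.

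Of the 73 genes of the lists with a probe, 3 had a diet effect that differed between the tissues in limma at an unadjusted p, beside 3.76% of all probes. SULT1A3, a sulfotransferase of phenols and catecholamines, had a difference of -1.80 on the log2 scale (adjusted p = 0.999), NQO1, a quinone reductase, 1.21 (adjusted p = 0.999) and SLC22A2, an organic cation transporter, -1.07 (adjusted p = 0.953). With single arrays left out in turn, the difference passed in 5 of 16 fits for SULT1A3, 8 of 16 for NQO1 and 16 of 16 for SLC22A2, with 5 of 8 colonic arrays well above background. With normexp background the SLC22A2 difference was -0.17 and did not pass.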

How the results depend on the processing

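Signal over background limits the colonic values, since 10 of the 30 P450 probes had no readable signal there, and 4 pigs per group on 1 slide limit every diet comparison. The number of P450 probes lower in the colon was 27 under each alternative chosen beforehand, with smaller sizes under normexp, and leaving out single arrays gave 27 to 28 passing. The counts of single values outside arrays left out in turn were 1151 with direction and side of the threshold kept, 49 below the threshold, 2 newly past it and 5 of opposite sign. With arrays left out in turn they were 1060, 87, 7 and 38. The filter on dim probes leaves out probes below background in every group compared, which then have no value.

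The counts were 23084 for colon against liver, 1283 and 1554 by diet in colon and liver and 1638 for the difference of diet effects. Those that moved by over 1.5 times are given next, and where no reason is given the cause was not tested. With a stricter threshold, a fold above 2, 12787 probes passed for colon against liver, 517 for the diet effect in colon and 525 for the diet effect in liver, and the P450 probes passing by diet were 0 in each tissue. With only probes well above background, fewer were tested, and 697 and 838 passed by diet in colon and liver and 1066 for the difference of diet effects. With normexp background the numbers were 180, 221 and 298, with 0 P450 probes in the colon and 4 for the difference of diet effects. With 75th percentile scaling 1968 passed by diet in the colon, 69.0% of them higher with RPS against 55.2%, and 1 P450 probe passed for the difference. With 16 arrays in 1 fit 1 P450 probe passed by diet in the liver.

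Leaving out the 2 colonic arrays with low epithelial markers, chosen after seeing the data, gave 2385 probes for the diet effect in colon, 2602 for the difference of diet effects and 2 P450 probes for that difference, and the sign turned for CYP1A2 A_72_P758583 in the colon (0.07) and NR1I2 A_72_P177521 between the tissues (0.22). CYP2B22 A_72_P185176 then passed between the tissues (1.92). Signs also turned with normexp for CYP1A1 A_72_P223362 in the liver (-0.01) and CYP3A39 A_72_P232927 in the colon (0.01), and in RPS pigs alone for NR1I2 A_72_P177521 (0.12). None of these values had passed a threshold before.

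The correlations of deviations did not show replicate numbers to pair the samples throughout. Between tissues they were 0.177, 0.334, 0.16 and 0.24 in CS pigs, each best with its own number, a hint from the data, and -0.077, -0.066, 0.012 and 0.073 in RPS pigs. The study's methods describe randomized blocks, with the replicate (a pen) as the block, and a Student's t-test for gene expression. The sample labels do not say whether their replicate numbers are these blocks. Between diets they were 0.074, 0.108, -0.164 and -0.047 in the liver and 0.549, -0.397, -0.507 and 0.099 in the colon. With the replicate number as a fixed block, 1267 probes passed for the diet effect in colon and 1522 for the diet effect in liver. A random block of replicate number within diet, across the tissues, had a consensus correlation of 0.079. With it 23713 passed for colon against liver and 1834 for the difference of diet effects. The P450 probes were 2, 3, 27 and 1 in this order, against 1, 4, 27 and 0 without a block. With the fixed block CYP3A29 A_72_P755349 in the colon (-0.71) was newly past the threshold and CYP2D25 A_72_P528160 in the liver (0.61) no longer past it. COL1A2 A_72_P107881 in the colon, SOX9 A_72_P146931 in the liver and SULT1A3 A_72_P517960 in the liver were also no longer past it.

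With single arrays left out, the counts ran from 22003 to 22810 for colon against liver, 1067 to 2635 for diet in the colon, 1408 to 2029 in the liver and 1507 to 2802 for the difference of diet effects, both highest without Colon_RPS replicate 2. P450 probes ran from 1 to 7 in the liver, stayed at 1 in the colon and ran from 0 to 4 for the difference. Log2 differences that changed sign, none of which passed with all arrays, had these ranges. In the liver by diet they were CYP1A1 A_72_P223362 (-0.20 to 0.34) and A_72_P443804 (-0.32 to 0.23), CYP1A2 A_72_P758583 (-0.27 to 0.17), CYP2B22 A_72_P458896 (-0.04 to 1.18), CYP2E1 A_72_P165451 (-0.04 to 0.18), A_72_P579098 (-0.08 to 0.46) and A_72_P594384 (-0.09 to 0.29), CYP3A29 A_72_P088491 (-0.34 to 0.15) and A_72_P797432 (-0.41 to 0.10), CYP3A39 A_72_P232927 (-0.87 to 0.05) and CYP3A46 A_72_P742947 (-0.57 to 0.42). In the colon by diet they were CYP1A2 A_72_P758583 (-0.27 to 0.03), CYP2B22 A_72_P185176 (-1.28 to 0.41) and A_72_P458896 (-1.73 to 0.22), CYP3A29 A_72_P088491 (-1.32 to 0.07), CYP3A39 A_72_P232927 (-1.03 to 0.43), CYP3A46 A_72_P742947 (-0.89 to 0.61) and A_72_P743157 (-1.14 to 0.09). Between the tissues they were CYP1A2 A_72_P758583 (-0.21 to 0.01) and NR1I2 A_72_P177521 (-0.37 to 0.04).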

Other observations

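The other steps of drug metabolism differed between the tissues in the same direction as the P450 genes in most cases. Of 14 conjugation genes with a probe, of 30, 9 were lower in the colon, beside 24.0% of all probes lower and 52.9% called in either direction, and 1 was higher, with a median log2 difference of -3.03. Of 18 other genes of oxidation, reduction and hydrolysis, of 29, 14 were lower and 2 higher, with a median of -4.00, or -4.03 with 1 at its bound and over the 17 with a fold or a bound. Of 10 transporters, of 15, 8 were lower and 1 higher, with a median of -6.10, or -5.86 with 4 at their bounds. By the fitted difference the lowest in the colon were CYP2C33 at -14.55 (adjusted p = 2.92e-14, lower in 8 of 8 colonic arrays), above background there on 1 array, SULT2A1, which sulfates steroids and bile acids, at -13.94 (adjusted p = 6.6e-13, 8 of 8), and the bile acid importer SLC10A1, at least 6750-fold lower, above background on 0 colonic arrays, and the ranks of CYP2C33 and SLC10A1 are uncertain for this reason. The highest were MAOA, which oxidizes monoamines, at 1.86 (adjusted p = 0.000269, 7 of 8 colonic arrays above all of the liver), NQO1 at 1.60 (adjusted p = 0.000127, 7 of 8) and the efflux pump ABCG2 at 1.21 (adjusted p = 0.05, 5 of 8), which passed with 3 of the 16 arrays left out in turn and lost its call under 6 of 12 alternatives.

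By diet, 1 of the 14 conjugation genes passed in the liver, beside 3.56% of all probes, SULT1A3, higher with RPS at 1.32 (limma p = 0.0292, adjusted p = 0.593, exact permutation p = 0.0571, 3 of 4 RPS pigs above all CS pigs). SULT1A3 did not pass without Liver_RPS replicate 1, 2 or 3, or with the replicate number as a block. MGST1, a microsomal glutathione transferase, was above every CS pig in 4 of 4 RPS pigs at under 1.5-fold (0.51, limma p = 0.004, adjusted p = 0.41, exact permutation p = 0.0286). Of the 10 transporters 1 passed in the liver, the canalicular pump ABCC2, which was lower with RPS at -0.61 (limma p = 0.00877, adjusted p = 0.479, exact permutation p = 0.0286, 4 of 4 RPS pigs below all CS pigs), and lost the call without Liver_CS replicate 1 or 3 or Liver_RPS replicate 1 or 3, the lowest size being -0.49, and under 6 of 11 alternatives, among them normexp and 16 arrays in 1 fit. In the colon 1 of the 10 passed, beside 2.94% of all probes, SLC22A2, which was lower with RPS at -0.97 (limma p = 0.0338, adjusted p = 0.896, exact permutation p = 0.0857, 3 of 4 RPS pigs below all CS pigs), with 5 of 8 arrays above background, and passed with 3 of the 8 arrays left out in turn, but not with normexp background (-0.13) or the methods' t-test. By limma 0 of the 18 other genes of oxidation, reduction and hydrolysis passed by diet in either tissue, with 0 at an unadjusted p under 0.05 by limma and 0 by the methods' t-test. Endothelial markers, 4 of 4 with a probe, and macrophage markers, 2 of 5, had 0 that passed by diet in either tissue. In the liver 1 endothelial gene, PECAM1, and 1 macrophage gene, CD14, had an unadjusted limma p under 0.05, beside 3309 of all 43603 probes. Both were lower with RPS, and the numbers were the same by the methods' t-test, beside 2899 of all probes.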
